A study of Mus musculus with 12 samples.

Results

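The early transcriptional response of mouse dendritic cells to lipopolysaccharide (LPS), a molecule of the outer membrane of Gram-negative bacteria, was examined at 1 h. The comparison held 6 of the 12 arrays of the series: 3 of cells given LPS at 100 ng/ml for 1 h, and 3 of unstimulated cells collected at 0 h. They were chosen by the treatment and time in the labels, which name a bone marrow-derived dendritic cell culture and give neither strain, genotype nor age. Both groups came from marrow of mouse leg bones from which B and T cells had been removed with antibodies and magnetic beads, followed by 5 days in medium with 2 cytokines, 10 ng/ml of GM-CSF and 5 ng/ml of IL-4. Cells were collected by pipetting. The labels name 3 biological replicates per group with donor letters A, B and C, and do not state whether a letter is the same animal in both groups. No sort of the cells before RNA extraction is named. On each array the Cy5-labelled sample was hybridised against Cy3-labelled Universal mouse reference RNA, so a level below is the log2 ratio of the sample to that pool. It can be compared between arrays for 1 gene but not between genes. A log2 change is the mean of the 3 arrays at 1 h minus that of the 3 unstimulated arrays, with its standard error (SE) from limma.

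LPS is recognised by the receptor Tlr4 together with the co-receptor Cd14. Signalling adaptors downstream of it release NF-kB proteins from their inhibitors and activate MAP kinases, which switch on AP-1 and serum response factors. Genes turned on by these pre-existing proteins without new protein synthesis are called primary response genes. They encode transcription factors, receptors that tune later sensing, and many inhibitors of the same pathways, and their messengers are often short-lived. These limits hold for all values below. In bulk RNA, fewer cells of a type and less messenger per cell cannot be told apart, and because the only controls were cells of 0 h, an added hour of handling cannot be told apart from LPS.

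Of 11095 genes tested, 827 passed an adjusted p under 0.05 (7.45%). Of these 451 were higher (4.06%) and 376 lower (3.39%) in cells at 1 h of LPS. A change of at least 2-fold was met by 214 of the higher genes (1.93% of those tested) and by 64 of the lower (0.577%). Rises reached far beyond falls: 84 genes rose by at least 4-fold and 1 fell as far, S100a8, whose call depended on the processing. The split depended on scaling: with each array centred on its median in place of loess 179 were higher and 46 lower (79.6% higher, against 54.5%), with normexp on every spot as deposited 156 and 87 (64.2%), and on processed signals from the scanner software 234 and 151 passed 2-fold (60.8% higher, against 77%). Median centring moved the median of all genes to -0.12. The median log2 change was 0.97 among genes called higher, -0.69 among those called lower and 0.02 over all genes tested.

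Between 48.2 and 55.2% of probes were above background on these 6 arrays, and their number limits the precision. The arrays of a group correlated across genes at r = 0.946 to 0.983, and those of different groups at 0.873 to 0.955. The 1 h array of donor B stood apart: it lay farthest from the unstimulated arrays for 305 of the 451 genes called higher and for 276 of the 376 called lower. Without it 399 genes were called, 254 higher and 145 lower. Slides differed as well. The 3 unstimulated arrays and 1 h array A shared slide 1, while 1 h arrays B and C lay on slides 2 and 3. With slide as a block the comparison rests on slide 1 alone, that is on 1 h array A against the 3 controls. The spread then comes from the controls and the arrays of the other slides, and array A is assumed to vary as they do. So fitted, 225 genes were called, 170 higher and 55 lower, and 217 of these were among the 827. A call kept under the block is therefore no replicate check of the 1 h group. Within slide 1 alone all 451 and all 376 genes had the sign of their call, although 1 h array A and the controls also made those calls. The arrays of the 2 groups did not overlap for any of the 827 called genes. Groups described below as apart therefore add nothing to a call. Apart from the neighbouring pairs at the end, genes named below as changed without a remark on slide were still called with slide as a block. That rule covers slide alone. Of 187 named genes called, 104 kept the call with median centring and 65 in all 17 alternatives. Calls lost with normexp as deposited include Fos, Il20rb, Cxcl16, Cish, Il10ra, Map3k8, Etv3, Olr1, Irf4, Nod2, Fbxo5 and Cdca7 (adjusted p = 0.099 to 0.34). Those lost with median centring include Plk3, Hic1, Mrps25, Mrpl49, Hjurp and Zfp770 (adjusted p = 0.072 to 0.13).

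Of 14 markers of conventional dendritic cells, the cells named by the labels, 11 were above background on every array of each group. Cd209a and Clec9a were at background on all 6. Markers of macrophages or monocytes (11 of 12 on the array at 1 h, 10 in unstimulated cells) and of neutrophils (10 and 11 of 15) were also above background. So were 6 of 7 markers of plasmacytoid dendritic cells and 8 of 10 of stromal cells in each group. Detection alone therefore does not set the labelled cell type apart. Of 10 B cell markers 6, Cd79a, Ms4a1, Pax5, Ebf1, Blk and Cd22, were at background on all 6 arrays, and 4 were above it on every array. Of 12 T and NK cell markers Cd3d, Ncr1, Gzma and Prf1 were at background on all 6. Above background on every array of the group were 2 of the 12 at 1 h and 3 in unstimulated cells.

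NF-kB proteins are held inactive by inhibitors, and new synthesis of these inhibitors ends a round of signalling. Of 25 tested genes for NF-kB subunits, inhibitors and their regulators, 12 rose and 0 fell, against 7.45% called either way over all genes, with a list median of 0.45 against 0.02 for all genes. Of the 12, 5 were called higher with slide as a block. Nfkbiz, an atypical inhibitor that also helps activate secondary genes, had 3.92, 4.37 and 4.0 at 1 h, against -2.47, -2.46 and -2.51 in unstimulated cells (a log2 change of 6.58, SE 0.38, adjusted p = 4.8e-07). The 3 arrays at 1 h differed among themselves by far less than the distance to the controls, which lay close together. Tnfaip3, a ubiquitin-editing enzyme (A20) that shuts off signalling to NF-kB, had 4.79, 5.41 and 4.66 on the 1 h arrays, against 0.98, 1.15 and 1.17 on the unstimulated arrays (a log2 change of 3.85, SE 0.34, adjusted p = 1.7e-05). Nfkbia, the classical inhibitor IkB-alpha, had 4.47, 4.98 and 4.02 at 1 h, against 1.26, 0.97 and 1.53 in unstimulated cells (a log2 change of 3.24, SE 0.27, adjusted p = 1.1e-05). All the 1 h arrays lay well above the controls for both genes, with array B highest. Nfkbid, a nuclear inhibitor related to Nfkbiz, had 3.6, 3.71 and 3.72 on the 1 h arrays, against 0.92, 1.15 and 0.77 on the unstimulated arrays (a log2 change of 2.74, SE 0.15, adjusted p = 4.8e-07). Tnip3, a partner of A20, had 4.74, 5.28 and 4.55 at 1 h, against 2.25, 2.29 and 2.0 in unstimulated cells (a log2 change of 2.67, SE 0.24, adjusted p = 1.9e-05). Of the subunits, Rela (p65) rose by 0.76, while Relb stood at 1.35, 1.69 and 1.28 on the 1 h arrays, against 1.32, 0.89 and 0.8 on the unstimulated arrays, and the groups overlapped (a log2 change of 0.44, SE 0.18, adjusted p = 0.16). The partners Tnip1 (1.05) and Tnip2 (0.45), the adaptor Traf1 (1.1), the kinase Ikbke (0.81) and the inhibitors Nfkbib (0.62) and Nfkbie (0.59) made up the rest of the 12. With slide as a block Rela, Tnip1, Tnip2, Traf1, Ikbke, Nfkbib and Nfkbie (adjusted p = 0.061, 0.12, 0.21, 0.054, 0.2, 0.17 and 0.14) were not called. The subunit gene Rel was on the array but did not pass the background filter and was not analysed here.

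The promoters of Nfkbia, Tnfaip3 and Tnip3 are shown because these genes are textbook targets of the factor they restrain. Those of Nfkbiz and Nfkbid are not shown. Each line gives 200 bases around the start of transcription, the last 25 of them after it, from RefSeq on GRCm38.p6, 5′ to 3′ on the gene's strand, with matches to the NF-kB consensus and, for Tnfaip3, to the AP-1 motif TGANTCA in capitals. The intervals are chr12:55492623-55492822 (minus strand) for Nfkbia, chr10:19015386-19015585 (minus strand) for Tnfaip3 and chr6:65590223-65590422 (plus strand) for Tnip3.
Nfkbia: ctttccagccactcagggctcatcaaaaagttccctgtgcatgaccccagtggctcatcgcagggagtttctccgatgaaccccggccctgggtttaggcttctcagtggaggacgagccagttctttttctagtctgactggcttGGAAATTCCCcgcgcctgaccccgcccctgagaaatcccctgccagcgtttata
Tnfaip3: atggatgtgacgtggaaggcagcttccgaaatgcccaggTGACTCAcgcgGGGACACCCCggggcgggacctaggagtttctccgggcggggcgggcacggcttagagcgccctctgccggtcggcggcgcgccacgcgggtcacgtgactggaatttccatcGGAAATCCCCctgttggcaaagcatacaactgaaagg
Tnip3: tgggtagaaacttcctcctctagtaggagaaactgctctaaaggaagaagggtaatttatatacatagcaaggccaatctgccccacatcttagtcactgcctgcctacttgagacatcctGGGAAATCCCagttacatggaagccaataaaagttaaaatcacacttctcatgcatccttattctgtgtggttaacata
The match began 29 bases before the start in Nfkbia, 125 and 12 bases before it in Tnfaip3, whose AP-1 match began 136 bases before, and 54 bases before it in Tnip3. Tnfaip3 has 2 promoters in the RefSeq table, and the printed promoter was picked for holding a match. These letters describe the sequence and are not measured binding sites. Over windows of 300 bases (250 before to 50 after the start, both strands), 17.6% of the 284 genes called higher with 1 promoter in the RefSeq table held an NF-kB match, as did 20.9% of the 129 raised by at least 2-fold, 8.2% of the 268 called lower and 9.8% of the 7143 tested. Over all 32851 promoters of the table the share was 8.5%. Matches to TGANTCA were found in 9.2% of genes called higher, 11.6% of those raised by at least 2-fold, 3.0% of genes called lower, 5.4% of genes tested and 7.8% of all promoters. The interferon-stimulated response element was found in 8.8, 13.2, 3.4, 3.4 and 3.4% in the same order. The TATA box letters TATAAA were found in 16.5, 25.6, 9.0, 9.0 and 13.6%, and the median number of CpG pairs per window was 17, 13 and 21 in the called groups and 20 in all genes tested. These shares are descriptions with no test.

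Immediate early genes are switched on within minutes of many stimuli. Of 22 tested genes of the early growth response, Nr4a, Ier, Btg and polo-like kinase families, 13 rose and 2 fell. These were 59.1 and 9.1%, against 4.06 and 3.39% of all genes. The list median was 1.08, and 10 of the rises were called with slide as a block. Egr1, a zinc finger activator, had -0.27, -0.05 and -1.12 at 1 h, against -4.38, -4.2 and -4.28 in unstimulated cells (a log2 change of 3.81, SE 0.25, adjusted p = 1e-06). Array C was the lowest of the 1 h arrays and still lay far above every control. Nr4a1, an orphan nuclear receptor, had -0.31, -0.51 and -0.57 on the 1 h arrays, against -3.42, -3.66 and -3.61 on the unstimulated arrays (a log2 change of 3.1, SE 0.24, adjusted p = 5.8e-06). It was the 1 nuclear receptor of 23 tested that was called (4.3%, against 7.45% of all genes). Csrnp1, a nuclear protein with transactivating activity, had 4.18, 4.36 and 4.07 at 1 h, against 1.76, 1.64 and 1.66 in unstimulated cells (a log2 change of 2.52, SE 0.16, adjusted p = 1e-06). Ier2 (immediate early response 2) had -1.17, -0.84 and -1.74 on the 1 h arrays, against -3.32, -3.56 and -3.33 on the unstimulated arrays (a log2 change of 2.15, SE 0.22, adjusted p = 6.4e-05). Each of these groups was well separated. The antiproliferative gene Btg2 rose by 2.01 (SE 0.14), its relative Btg1 by 1.45 (SE 0.28) and Btg3 by 0.53 (adjusted p = 0.14 with slide as a block). Egr2 rose by 1.15, but the call was lost whichever of the 6 arrays was left out (adjusted p = 0.07 to 0.16) and with slide as a block (adjusted p = 0.2). The falls were of Arc, best known from synapses, with 0.5, 0.1 and 0.24 at 1 h, against 1.78, 1.39 and 1.35 in unstimulated cells (a log2 change of -1.23, SE 0.21, adjusted p = 0.0039), and of the pseudokinase Trib2, with -0.66, -1.36 and -0.77 on the 1 h arrays, against -0.05, -0.14 and 0.12 on the unstimulated arrays (a log2 change of -0.91, SE 0.2, adjusted p = 0.016). Its relative Trib3 went the other way, rising by 1.12 (adjusted p = 0.053 with slide as a block). With slide as a block neither Arc (adjusted p = 0.14) nor Trib2 (adjusted p = 0.075) was called, and Trib2 was also lost without 1 h array B or unstimulated array A or C (adjusted p = 0.051 to 0.062).

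AP-1 is a dimer of Jun, Fos, Atf and Maf proteins. Of 29 tested members of these families and of CREB, 8 rose and 0 fell (27.6% higher, against 4.06% of all genes). The median was 0.40, and 4 were called with slide as a block. Junb had 2.26, 2.73 and 2.39 at 1 h, against 0.28, 0.2 and 0.53 in unstimulated cells (a log2 change of 2.12, SE 0.21, adjusted p = 4.3e-05), and the small Maf protein Maff had 1.4, 1.15 and 1.47 on the 1 h arrays, against -0.51, -0.38 and -0.42 on the unstimulated arrays (a log2 change of 1.77, SE 0.14, adjusted p = 5.3e-06). Atf3, a stress-induced repressor of cytokine genes, had 4.52, 4.79 and 4.27 at 1 h, against 3.03, 2.86 and 3.32 in unstimulated cells (a log2 change of 1.46, SE 0.19, adjusted p = 0.00041), and Fos had -1.94, -1.69 and -2.51 on the 1 h arrays, against -3.42, -3.25 and -3.32 on the unstimulated arrays (a log2 change of 1.28, SE 0.21, adjusted p = 0.0026). The arrays at 1 h lay above the controls for each of these. Jun itself rose by 0.81 (adjusted p = 0.011), with adjusted p = 0.061 without unstimulated array A. The regulators of stress responses Nfe2l2 (1.08) and Atf4 (0.56) and the Fos relative Fosl2 (0.69) also passed. With slide as a block Jun, Nfe2l2, Atf4 and Fosl2 (adjusted p = 0.065, 0.16, 0.12 and 0.084) were not called.

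Of the other transcription factors, few per family had changed. Among 15 tested Kruppel-like and Sp factors, Klf6 and Klf7 rose and Klf10 fell (13.3 and 6.7%, against 4.06 and 3.39% of all genes). Klf6 had 2.67, 3.21 and 2.6 at 1 h, against 1.13, 1.27 and 0.92 in unstimulated cells (a log2 change of 1.72, SE 0.18, adjusted p = 5.9e-05). Klf10, a factor induced by TGF-beta in other cells, had -1.58, -1.56 and -1.72 on the 1 h arrays, against -0.61, -0.36 and -0.29 on the unstimulated arrays (a log2 change of -1.2, SE 0.16, adjusted p = 0.00051). For both, the arrays of a group lay close together. Klf7 rose by 0.88 (adjusted p = 0.053 with slide as a block), whereas Klf2 changed by 0.39 (adjusted p = 0.46) and Klf4 by 0.12 (adjusted p = 0.85), and neither was called. Irf4, a factor needed for a subset of dendritic cells, had 3.1, 3.21 and 3.16 at 1 h, against 1.69, 1.55 and 1.79 in unstimulated cells (a log2 change of 1.48, SE 0.11, adjusted p = 3.4e-06). It was the 1 called gene of 16 interferon regulatory factors and STATs (6.2%, against 7.45% of all genes). Irf1, at 0.38, 0.7 and 0.37 on the 1 h arrays, against -0.36, -0.52 and -0.54 on the unstimulated arrays, missed the threshold (a log2 change of 0.96, SE 0.3, adjusted p = 0.073, 0.0041 when only the 6 arrays were fitted, and 0.024 with donor as a block), and so did Irf8 (log2 change 0.67, adjusted p = 0.085, and 0.046 without 1 h array C). Of 37 tested ETS, RUNX, GATA, CEBP and MYB lineage factors 5 rose and 1 fell (13.5 and 2.7%, against 4.06 and 3.39% of all genes). There were 3 rises without 1 h array B, 3 without unstimulated array A and 1 with slide as a block. Etv3, an ETS repressor, had 2.76, 2.32 and 2.54 at 1 h, against 1.08, 0.79 and 1.24 in unstimulated cells (a log2 change of 1.5, SE 0.15, adjusted p = 5.1e-05), and was the 1 call left with slide as a block. The fall was of Ikzf1, the lymphoid and myeloid zinc finger factor Ikaros, with 0.38, 0.22 and 0.54 on the 1 h arrays, against 1.21, 1.06 and 1.17 on the unstimulated arrays (a log2 change of -0.77, SE 0.14, adjusted p = 0.0058). Both groups of Ikzf1 were tight, and its adjusted p was 0.063 with slide as a block. Id2, which blocks basic helix-loop-helix factors in dendritic cell development, rose by 0.97 (adjusted p = 0.067 with slide as a block). Cebpb, an activator of inflammatory genes, missed the threshold at 0.88 (adjusted p = 0.066), and its relatives Cebpd and Cebpa at 0.21 and -0.34. Cebpb passed with donor as a block (adjusted p = 0.031), without 1 h array C (adjusted p = 0.036) and without unstimulated array C (adjusted p = 0.04).

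Among 35 tested helix-loop-helix, Hes, Myc and clock factors 3 rose and 1 fell (8.6 and 2.9%, against 4.06 and 3.39% of all genes). The median was 0.07, and -0.07 to 0.1 by the other scalings. Mycn had 2.58, 2.0 and 2.45 at 1 h, against 1.0, 1.7 and 1.22 in unstimulated cells (a log2 change of 1.04, SE 0.19, adjusted p = 0.0056), whereas Myc stood at -0.93, -1.01 and -1.05 on the 1 h arrays, against -0.98, -0.95 and -1.12 on the unstimulated arrays and overlapped (a log2 change of 0.02, SE 0.24, adjusted p = 0.96). Ahr, the receptor for dioxin and related ligands, rose by 0.96, with adjusted p = 0.067 with slide as a block. The fall was of Mxd3, a partner of Max that opposes Myc (-0.58), which was not called with slide as a block (adjusted p = 0.12) or without 1 h array A or B or unstimulated array A or C (adjusted p = 0.055 to 0.1). Outside these lists, Hic1, a zinc finger repressor, had 0.3, -0.36 and 0.5 at 1 h, against 2.09, 1.53 and 1.48 in unstimulated cells (a log2 change of -1.55, SE 0.28, adjusted p = 0.0049), with array B lowest. Over the 198 factor genes of these lists 43 were called higher and 5 lower (24.2%, against 7.45% of all genes). The factors were named with earlier results of these data known, so that share is a description. It leaves out Hic1 and the zinc finger genes given below with the falls, of which 2 of 216 rose and 36 fell. It is therefore no measure of the direction of all transcription factors.

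**Figure D1:**
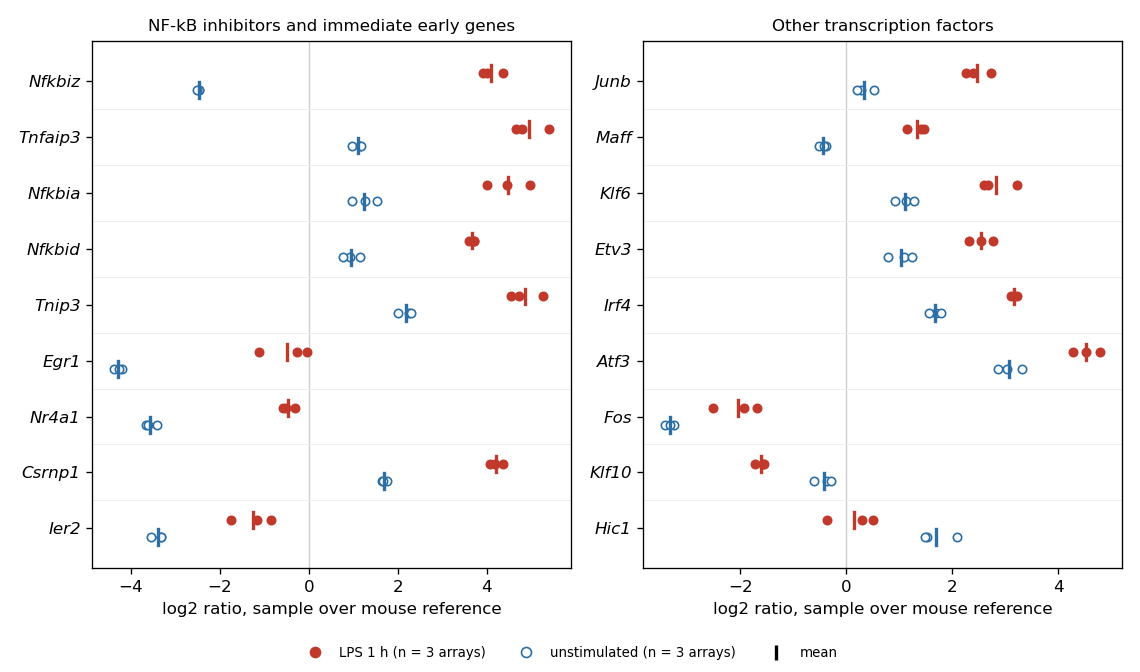
Log2 ratio of sample to mouse reference (x axis) on each array for regulators of NF-kB and immediate early genes (left) and other transcription factors (right). Filled red points are the 3 arrays at LPS 1 h, open blue points the 3 unstimulated arrays, and vertical marks the means. For every gene drawn the groups lie apart, as they do for all called genes, with the widest gap for Nfkbiz. Klf10 and Hic1 are lower at 1 h.

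Receptors of microbial products rose without a fall: 7 of 28 tested Toll-like and other pattern recognition receptors and adaptors were higher (25%, against 4.06% of all genes), with a median of 0.25, and 5 with slide as a block. Cd14 had 1.32, 2.02 and 1.11 on the 1 h arrays, against -2.01, -1.83 and -1.75 on the unstimulated arrays (a log2 change of 3.35, SE 0.3, adjusted p = 1.9e-05). Tlr2, a receptor for bacterial lipoproteins, had 3.22, 4.02 and 2.67 at 1 h, against 1.08, 0.97 and 1.42 in unstimulated cells (a log2 change of 2.15, SE 0.34, adjusted p = 0.0021). Ifih1, a sensor of viral double-stranded RNA, had 2.41, 3.76 and 2.64 on the 1 h arrays, against 0.82, 0.9 and 0.81 on the unstimulated arrays (a log2 change of 2.09, SE 0.28, adjusted p = 0.00058). Array B was the highest for all 3 genes. Nlrp3, the inflammasome sensor, had 1.73, 1.96 and 1.56 at 1 h, against 0.58, 0.51 and 0.41 in unstimulated cells (a log2 change of 1.25, SE 0.12, adjusted p = 4.3e-05). Nod2, which detects muramyl dipeptide, had 1.96, 2.17 and 1.97 on the 1 h arrays, against 0.81, 0.72 and 0.96 on the unstimulated arrays (a log2 change of 1.2, SE 0.12, adjusted p = 3.7e-05). Tlr7, a sensor of single-stranded RNA, rose by 1.51 (adjusted p = 0.0095, and 0.069 with slide as a block). Irak2, a kinase relative that carries the signal of these receptors, rose by 0.83 (adjusted p = 0.16 with slide as a block). Tlr4 itself stood at 0.3, 1.71 and 0.37 at 1 h, against -0.18, 0.13 and 0.06 in unstimulated cells. Of the 1 h arrays only B was far above the controls, and the change missed the threshold (a log2 change of 0.79, SE 0.3, adjusted p = 0.13, and 0.044 with donor as a block). Without array B it was 0.33.

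Of 42 tested C-type lectins, Fc and scavenger receptors 11 rose and 0 fell (26.2% higher, against 4.06% of all genes, with a median of 0.32). There were 4 with slide as a block. Leaving out 1 h array B left 7, and leaving out unstimulated array A, B or C left 5, 6 and 7. Clec4e, the lectin Mincle that binds mycobacterial glycolipid and products of dead cells, had 2.73, 3.42 and 2.88 on the 1 h arrays, against -1.42, -1.18 and -1.54 on the unstimulated arrays (a log2 change of 4.39, SE 0.26, adjusted p = 4.9e-07). Olr1, a receptor for oxidised low-density lipoprotein, had 4.42, 6.21 and 4.53 at 1 h, against 1.76, 2.45 and 2.05 in unstimulated cells (a log2 change of 2.97, SE 0.48, adjusted p = 0.0023). Both were far above the controls on every array, with array B highest. Cxcl16, a membrane-bound chemokine that also takes up oxidised lipoprotein, rose by 1.44 (SE 0.2), and Trem1, an amplifier of Toll-like receptor signals, by 1.23 (adjusted p = 0.053 with slide as a block). The signalling lectin Clec5a rose by 1.21 (adjusted p = 0.33 with slide as a block). Mrc1, the mannose receptor, had 4.21, 5.51 and 4.37 on the 1 h arrays, against 3.02, 3.67 and 3.73 on the unstimulated arrays (a log2 change of 1.22, SE 0.34, adjusted p = 0.049), close to the threshold, and its call was lost under the slide block (adjusted p = 0.47) and without 1 h array B or unstimulated array A, B or C (adjusted p = 0.062 to 0.2).

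G protein-coupled receptors split, with 12 of 76 tested higher and 3 lower (15.8 and 3.9%, against 4.06 and 3.39% of all genes). The median was 0.14, and 0.06 to 0.13 by the other scalings. There were 7 higher and 1 lower with slide as a block, and without unstimulated array A 7 were higher. Ccrl2, which binds the chemoattractant chemerin without signalling itself, had 6.21, 7.05 and 6.02 at 1 h, against 1.0, 1.06 and 1.21 in unstimulated cells (a log2 change of 5.33, SE 0.42, adjusted p = 5.8e-06). Adora2b, the low-affinity adenosine receptor, had 2.93, 2.94 and 2.81 on the 1 h arrays, against 1.1, 1.15 and 1.26 on the unstimulated arrays (a log2 change of 1.72, SE 0.17, adjusted p = 5.1e-05). Ptger4, a receptor for prostaglandin E2, had 1.87, 1.58 and 1.84 at 1 h, against 0.75, 0.34 and 0.75 in unstimulated cells (a log2 change of 1.15, SE 0.21, adjusted p = 0.0053, and 0.058 with slide as a block). Hcar2, the receptor for niacin and hydroxybutyrate, had 5.03, 5.53 and 5.04 on the 1 h arrays, against 3.8, 3.98 and 3.82 on the unstimulated arrays (a log2 change of 1.33, SE 0.27, adjusted p = 0.011, and 0.052 without unstimulated array A). The groups were apart for all of these. The leukotriene receptor Cysltr2 rose by 1.12 (SE 0.19), the nucleotide receptor P2ry2 by 1.1 and the formyl peptide receptor Fpr2 by 1.09 (adjusted p = 0.19 with slide as a block). Gpr84, a receptor for medium-chain fatty acids, rose by 1.72, but lost its call under the slide block (adjusted p = 0.15) and without 1 h array A or unstimulated array B or C (adjusted p = 0.051 to 0.06). The falls were of Lpar6, a lysophosphatidic acid receptor, with -0.68, -1.0 and -0.68 at 1 h, against 0.3, 0.74 and 0.82 in unstimulated cells (a log2 change of -1.4, SE 0.29, adjusted p = 0.013), of Cnr2, the cannabinoid receptor of immune cells, with 3.05, 2.7 and 3.45 on the 1 h arrays, against 4.28, 4.55 and 4.39 on the unstimulated arrays (a log2 change of -1.34, SE 0.34, adjusted p = 0.032), and of Gpr146, with a log2 change of -0.97. Lpar6 was not called without 1 h array B or unstimulated array B (adjusted p = 0.054 to 0.062). Cnr2 was not called with slide as a block (adjusted p = 0.14) or without 1 h array A or B or unstimulated array A, B or C (adjusted p = 0.064 to 0.12), nor Gpr146 with the block (adjusted p = 0.23) or without 1 h array B or C or unstimulated array A, B or C (adjusted p = 0.065 to 0.13).

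Of the chemokine receptors that steer dendritic cells, Ccr7, Ccr2 and Cxcr4 did not pass the test. Ccr7, which guides them to lymph nodes, had 5.61, 5.91 and 5.0 at 1 h, against 5.32, 4.77 and 5.01 in unstimulated cells (a log2 change of 0.47, SE 0.26, adjusted p = 0.29), with overlapping groups, and Ccr2 changed by 0.84 (adjusted p = 0.22) and Cxcr4 by -0.43 (adjusted p = 0.11). Of 75 tested cytokine, TNF and growth factor receptors 4 rose and 1 fell (5.3 and 1.3%, near the 4.06 and 3.39% of all genes). The count of rises was 7 without 1 h array C and 2 without unstimulated array A. Il20rb, a chain of receptors for IL-20 family cytokines, had 3.42, 4.27 and 3.5 on the 1 h arrays, against 1.91, 2.35 and 2.1 on the unstimulated arrays (a log2 change of 1.61, SE 0.21, adjusted p = 0.00041). Il10ra, a chain of the IL-10 receptor, had 4.85, 5.16 and 4.64 at 1 h, against 3.93, 3.45 and 4.01 in unstimulated cells (a log2 change of 1.09, SE 0.19, adjusted p = 0.0045). Tnfrsf1b, the TNF receptor 2, rose by 1.28 (adjusted p = 0.11 with slide as a block, and 0.069 to 0.074 without 1 h array B or unstimulated array A or B). Tnfrsf13c, the receptor for the B cell survival factor BAFF, had 0.8, -0.19 and 1.1 on the 1 h arrays, against 1.96, 1.88 and 2.0 on the unstimulated arrays (a log2 change of -1.37, SE 0.28, adjusted p = 0.011, and 0.19 with slide as a block). The decoy receptor Il1r2 changed by 0.31 (adjusted p = 0.69). With normexp as deposited the rises among lectins, G protein-coupled and cytokine receptors numbered 1, 2 and 0, and with median centring 3, 4 and 3. Over the 221 receptor genes of these lists 34 rose and 4 fell (17.2% called, against 7.45% of all genes).

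Enzymes that end phosphorylation signals divided by family member. Of 51 tested dual specificity and tyrosine phosphatases with their partners, 5 rose and 3 fell. These were 9.8 and 5.9%, against 4.06 and 3.39% of all genes. With slide as a block 4 rose and 1 fell. The median was 0.11, and -0.05 to 0.13 by the other scalings. Dusp2 had 2.43, 1.61 and 2.93 at 1 h, against -0.58, -0.5 and -1.03 in unstimulated cells (a log2 change of 3.03, SE 0.4, adjusted p = 0.00046). Dusp1, which inactivates p38 and JNK in the nucleus, had 1.27, 1.53 and 1.15 on the 1 h arrays, against -1.37, -1.52 and -1.48 on the unstimulated arrays (a log2 change of 2.77, SE 0.18, adjusted p = 7.7e-07). Dusp4 had 2.19, 2.1 and 1.94 at 1 h, against 0.11, -0.25 and 0.15 in unstimulated cells (a log2 change of 2.07, SE 0.19, adjusted p = 1.9e-05). In contrast to most genes, Dusp2 was lowest on array B of the 1 h arrays. The cytoplasmic, ERK-directed phosphatases were lower: Dusp7 had -0.18, -0.3 and -0.37 on the 1 h arrays, against 1.01, 0.89 and 0.6 on the unstimulated arrays (a log2 change of -1.12, SE 0.17, adjusted p = 0.0012). Dusp6 had -3.57, -3.91 and -3.88 at 1 h, against -2.86, -2.67 and -2.66 in unstimulated cells (a log2 change of -1.06, SE 0.23, adjusted p = 0.015). The groups lay apart, but Dusp6 was not called with slide as a block (adjusted p = 0.19) or without 1 h array B or unstimulated array B (adjusted p = 0.059 to 0.065). Ppp1r15a (Gadd34), which directs a phosphatase to the translation factor eIF2-alpha, had 1.82, 2.03 and 0.7 on the 1 h arrays, against -1.2, -1.4 and -1.01 on the unstimulated arrays (a log2 change of 2.72, SE 0.29, adjusted p = 8.3e-05), with array C lowest of the 1 h arrays and above every control.

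Of 103 tested genes in a list of MAP kinases and other signalling kinases 11 rose and 0 fell, against 4.06% of all genes higher. Kinases outside the list are not counted here, such as Camkk1, which fell and is given below. The list median was 0.07, and -0.05 to 0.06 by the other scalings. The rises numbered 5 with slide as a block, and leaving out 1 h array B, unstimulated array A or unstimulated array B left 7, 6 and 7. Plk2, a polo-like kinase of the stress response, had 2.72, 4.15 and 2.49 at 1 h, against 0.2, 0.05 and 0.25 in unstimulated cells (a log2 change of 2.95, SE 0.4, adjusted p = 0.00062), with array B highest, and Plk3 had 1.99, 1.94 and 2.24 on the 1 h arrays, against 0.48, 0.6 and 0.48 on the unstimulated arrays (a log2 change of 1.54, SE 0.22, adjusted p = 0.00089). Map3k8 (Tpl2), which links LPS to ERK, had 1.48, 1.71 and 1.45 at 1 h, against 0.29, 0.3 and 0.52 in unstimulated cells (a log2 change of 1.18, SE 0.19, adjusted p = 0.002). Pim1, a survival kinase, had 2.65, 2.54 and 2.35 on the 1 h arrays, against 1.34, 0.88 and 1.52 on the unstimulated arrays (a log2 change of 1.27, SE 0.19, adjusted p = 0.0012), and Sgk1, a kinase induced by serum and glucocorticoids, rose by 1.4 (SE 0.2). Mapkapk2, the p38 target that stabilises cytokine messengers, rose by 0.92 (adjusted p = 0.059 with slide as a block).

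Of 41 tested genes in a list of regulators of messenger decay and RNA binding 3 rose and 1 fell (7.3 and 2.4%, against 4.06 and 3.39% of all genes). The list does not hold every such gene, and called falls outside it are not counted. The median was 0.02, and -0.19 to 0.0 by the other scalings. Zfp36 (tristetraprolin), which binds AU-rich elements and speeds the decay of Tnf messenger, had 1.68, 1.44 and 1.61 at 1 h, against -0.97, -1.05 and -0.76 in unstimulated cells (a log2 change of 2.5, SE 0.16, adjusted p = 6.7e-07). Its 3 arrays at 1 h lay close together. Zc3h12a, an endonuclease for cytokine messengers, was at 0.38, 2.19 and 0.47 on the 1 h arrays, against 0.08, -0.01 and -0.2 on the unstimulated arrays. Of the 1 h arrays only B stood high, and the change missed the threshold (a log2 change of 1.06, SE 0.41, adjusted p = 0.14, and 0.05 with donor as a block). Its change was 0.47 without 1 h array B (adjusted p = 0.44), whereas processed signals of the scanner gave a called change of 3.39 (adjusted p = 0.0049). Tia1, a translational repressor, changed by -0.69 (adjusted p = 0.021), and was not called with slide as a block (adjusted p = 0.19) or without 1 h array B or unstimulated array B (adjusted p = 0.089 to 0.1).

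The promoters of Zfp36, Dusp1 and Plk2 are shown because each held a match, in capitals, to the CArG box of the serum response element (Zfp36) or to the cAMP response element TGACGTCA (Dusp1 and Plk2). They are printed as above, from chr7:28379204-28379403 (minus strand), chr17:26508448-26508647 (minus strand) and chr13:110394869-110395068 (plus strand) of GRCm38.p6.
Zfp36: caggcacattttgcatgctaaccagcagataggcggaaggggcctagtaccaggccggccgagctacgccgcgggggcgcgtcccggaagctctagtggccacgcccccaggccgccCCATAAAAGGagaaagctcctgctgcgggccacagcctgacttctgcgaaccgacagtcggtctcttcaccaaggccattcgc
Dusp1: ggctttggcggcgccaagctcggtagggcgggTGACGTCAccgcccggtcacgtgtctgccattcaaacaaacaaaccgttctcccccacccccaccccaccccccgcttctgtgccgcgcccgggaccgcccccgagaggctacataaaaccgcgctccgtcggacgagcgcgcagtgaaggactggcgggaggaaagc
Plk2: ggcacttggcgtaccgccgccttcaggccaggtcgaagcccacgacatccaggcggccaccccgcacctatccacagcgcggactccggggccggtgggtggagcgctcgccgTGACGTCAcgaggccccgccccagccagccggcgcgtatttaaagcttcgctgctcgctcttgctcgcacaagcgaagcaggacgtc
The matches began 58, 143 and 62 bases before the start. TGACGTCA stood in 3.5% of genes called higher, 5.4% of those raised by at least 2-fold, 3.0% of genes called lower, 2.9% of genes tested and 1.8% of all promoters, and the CArG box in 1.1, 1.6, 0.7, 1.3 and 1.6%. For both motifs the share among called genes lay close to that among all genes tested, or differed by few genes (10 of 284 and 3 of 284 genes called higher).

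Of 71 tested enzymes of lipid, prostanoid, sterol and nucleotide signalling 5 rose and 0 fell (7% higher, against 4.06% of all genes). The median was 0.16, and -0.01 to 0.15 by the other scalings. There were 11 rises without 1 h array C and 1 with slide as a block, Pde4b. Ch25h, which makes the antiviral and chemoattractant oxysterol precursor 25-hydroxycholesterol, had 4.09, 6.59 and 4.51 at 1 h, against 1.1, 1.89 and 0.92 in unstimulated cells (a log2 change of 3.76, SE 0.62, adjusted p = 0.0027). Array B lay well above the other 1 h arrays, the change was 3.00 without it, and with slide as a block the call was lost (adjusted p = 0.082). Ptgs2, cyclooxygenase-2, had 0.49, 1.2 and 1.15 on the 1 h arrays, against -1.89, -2.07 and -1.64 on the unstimulated arrays (adjusted p = 0.011, and 0.099 with slide as a block and 0.055 without unstimulated array B). The probe was at background on all unstimulated arrays, so only a bound can be given, set against the dimmest sample-channel signal that still counted as above background: Ptgs2 was at least 6.34-fold higher at 1 h. Pde4b, a phosphodiesterase that degrades cyclic AMP, had 2.56, 2.28 and 1.35 at 1 h, against 0.26, -0.32 and 0.44 in unstimulated cells (a log2 change of 1.94, SE 0.35, adjusted p = 0.0052). Hdc, which makes histamine and is also a mast cell and basophil marker, rose by 1.33 (adjusted p = 0.069 with slide as a block). Of 11 markers of those cells on the array, Hdc included, 5 were above background on every 1 h array and 8 on every unstimulated array, while Mcpt8 and Ms4a2 were at background on all 6. Their summed sample-channel signal, not scaled between arrays, was 1460 to 3160 at 1 h, against 1740 to 1920 in unstimulated cells. Their part in the rise of Hdc was not tested. Pla2g7, the hydrolase of platelet-activating factor, rose by 0.95 (adjusted p = 0.058 with the block).

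Of 80 tested ubiquitin ligases and deubiquitinases 8 rose and 2 fell (10 and 2.5%, against 4.06 and 3.39% of all genes). With slide as a block 4 rose and 0 fell. The median was 0.02, and -0.13 to 0.02 by the other scalings. Besides Tnfaip3, the ligase Peli1 of the Toll-like receptor pathway had 0.69, 0.91 and 0.5 on the 1 h arrays, against -0.52, -0.72 and -0.56 on the unstimulated arrays (a log2 change of 1.3, SE 0.14, adjusted p = 8.2e-05), and Trim13, a ligase of the endoplasmic reticulum, rose by 1.16 (SE 0.16). Mdm2, the ligase for p53, rose by 1.4 and Peli2 by 0.92 (adjusted p = 0.14 and 0.073 with the block). Marchf1, which removes MHC class II from the surface, was called at 0.85, but not without 1 h array A or B or unstimulated array A (adjusted p = 0.053 to 0.085), and its sign turned with the scanner software's processed signals (-0.60). Of 53 tested chromatin modifiers 3 rose and 2 fell (5.7 and 3.8%, near the 4.06 and 3.39% of all genes). Kdm6b (Jmjd3), which removes the repressive methyl mark from lysine 27 of histone H3, had 1.36, 2.31 and 1.57 at 1 h, against -0.3, -0.48 and -0.37 in unstimulated cells (a log2 change of 2.13, SE 0.23, adjusted p = 9.1e-05), while Ezh2, which writes that mark, had -1.03, -1.45 and -0.89 on the 1 h arrays, against -0.56, -0.32 and -0.59 on the unstimulated arrays (a log2 change of -0.63, SE 0.14, adjusted p = 0.02). The groups of both genes were apart, but Ezh2 was not called with slide as a block (adjusted p = 0.18) or without 1 h array B or unstimulated array A or B (adjusted p = 0.06 to 0.099).

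Inhibitors of receptor signalling held opposite members. Of 43 tested SOCS, Sprouty, Gadd45 and cyclin-dependent kinase inhibitor genes 8 rose and 5 fell. These were 18.6 and 11.6%, against 4.06 and 3.39% of all genes. With slide as a block 4 rose and 3 fell. The median was 0.03, and -0.12 to 0.02 by the other scalings. There were 5 rises without 1 h array B and 5 without unstimulated array B. Socs3, which blocks signalling of IL-6 type receptors, had 2.42, 2.53 and 2.3 at 1 h, against -0.37, -0.46 and -0.05 in unstimulated cells (a log2 change of 2.71, SE 0.16, adjusted p = 5.4e-07). Socs1, which blocks interferon and IL-4 receptors, had 2.58, 2.12 and 2.59 on the 1 h arrays, against 4.03, 3.94 and 4.07 on the unstimulated arrays (a log2 change of -1.58, SE 0.17, adjusted p = 9.7e-05). Cish, a target of STAT5, had 6.37, 6.67 and 6.19 at 1 h, against 5.36, 5.36 and 5.39 in unstimulated cells (a log2 change of 1.03, SE 0.15, adjusted p = 0.0011). Groups were narrow and apart for all of them. The growth arrest gene Gadd45a had 1.54, 2.48 and 1.16 on the 1 h arrays, against -1.25, -1.08 and -1.21 on the unstimulated arrays (a log2 change of 2.91, SE 0.36, adjusted p = 0.00027), whereas its relative Gadd45g had -1.81, -1.77 and -2.15 at 1 h, against -0.36, -0.45 and -0.06 in unstimulated cells (a log2 change of -1.62, SE 0.2, adjusted p = 0.00033). Gadd45b rose by 1.41, but not with slide as a block (adjusted p = 0.057) or without 1 h array B or unstimulated array B (adjusted p = 0.06 to 0.064). Spry1, an inhibitor of receptor tyrosine kinases, had 0.45, 1.32 and 0.51 on the 1 h arrays, against -1.6, -1.52 and -1.72 on the unstimulated arrays (a log2 change of 2.37, SE 0.25, adjusted p = 7.5e-05). Cdkn1a (p21) rose by 0.9 and Cdkn2c (p18) fell by 0.74 on the log2 scale (adjusted p = 0.16 and 0.097 with slide as a block).

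Of 71 tested regulators of G proteins and small GTPases 11 rose and 0 fell (15.5% higher, against 4.06% of all genes). The rises numbered 6 with slide as a block, 7 without 1 h array B and 6 without unstimulated array B. The median was 0.02, and -0.15 to 0.01 by the other scalings. Rgs1, which damps chemokine receptor signals, had 6.69, 6.65 and 6.49 at 1 h, against 3.5, 3.3 and 3.36 in unstimulated cells (a log2 change of 3.22, SE 0.25, adjusted p = 5.8e-06). Errfi1 (Mig-6), an inhibitor of the EGF receptor, had 0.96, 1.08 and 1.17 on the 1 h arrays, against -2.08, -1.69 and -1.68 on the unstimulated arrays (a log2 change of 2.89, SE 0.17, adjusted p = 5.4e-07). Rnd3, a small GTPase that loosens actin fibres, had 0.23, 1.05 and -0.33 at 1 h, against -1.6, -1.86 and -2.08 in unstimulated cells (a log2 change of 2.17, SE 0.4, adjusted p = 0.0056). For Rgs1 and Errfi1 the 1 h arrays lay close together. Rnd1 had -0.65, 1.41 and -0.52 on the 1 h arrays, against -1.95, -2.21 and -2.21 on the unstimulated arrays (a log2 change of 2.21, SE 0.43, adjusted p = 0.0089), so that array B carried much of its change of 2.21, which was 1.54 without it (adjusted p = 0.071 with slide as a block). Gem, a small GTPase of calcium channels, had -0.39, 0.22 and -0.44 at 1 h, against -1.2, -1.72 and -1.61 in unstimulated cells (adjusted p = 0.012), with the probe at background on every unstimulated array, and was not called without 1 h array B or unstimulated array B (adjusted p = 0.053 to 0.064). Of 33 tested apoptosis regulators 8 rose and 1 fell (24.2 and 3%, against 4.06 and 3.39% of all genes). The median was 0.07, and -0.15 to 0.06 by the other scalings. Cflar, an inhibitor of caspase-8, had 3.21, 3.63 and 2.72 on the 1 h arrays, against 1.22, 1.02 and 1.07 on the unstimulated arrays (a log2 change of 2.08, SE 0.24, adjusted p = 0.00018), and the pro-apoptotic genes Pmaip1 (Noxa) and Bcl2l11 (Bim) rose by 1.55 and 1.35 (for Bcl2l11 adjusted p = 0.066 with slide as a block). Casp2, an apical caspase, fell to -1.9, -2.79 and -1.75 at 1 h, against -1.02, -0.7 and -1.01 in unstimulated cells (a log2 change of -1.23, SE 0.22, adjusted p = 0.0052, and 0.099 with slide as a block). Of 71 tested solute carriers 5 rose and 2 fell (7 and 2.8%, against 4.06 and 3.39% of all genes). Slc20a1, a phosphate transporter, had 0.31, 1.1 and 0.56 on the 1 h arrays, against -0.99, -0.72 and -1.36 on the unstimulated arrays (a log2 change of 1.68, SE 0.22, adjusted p = 0.00046), and the mitochondrial carrier Slc25a25 rose by 1.66 (SE 0.23). The number of solute carriers called higher was 3 without 1 h array A or B and 8 without array C.

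**Figure D2:**
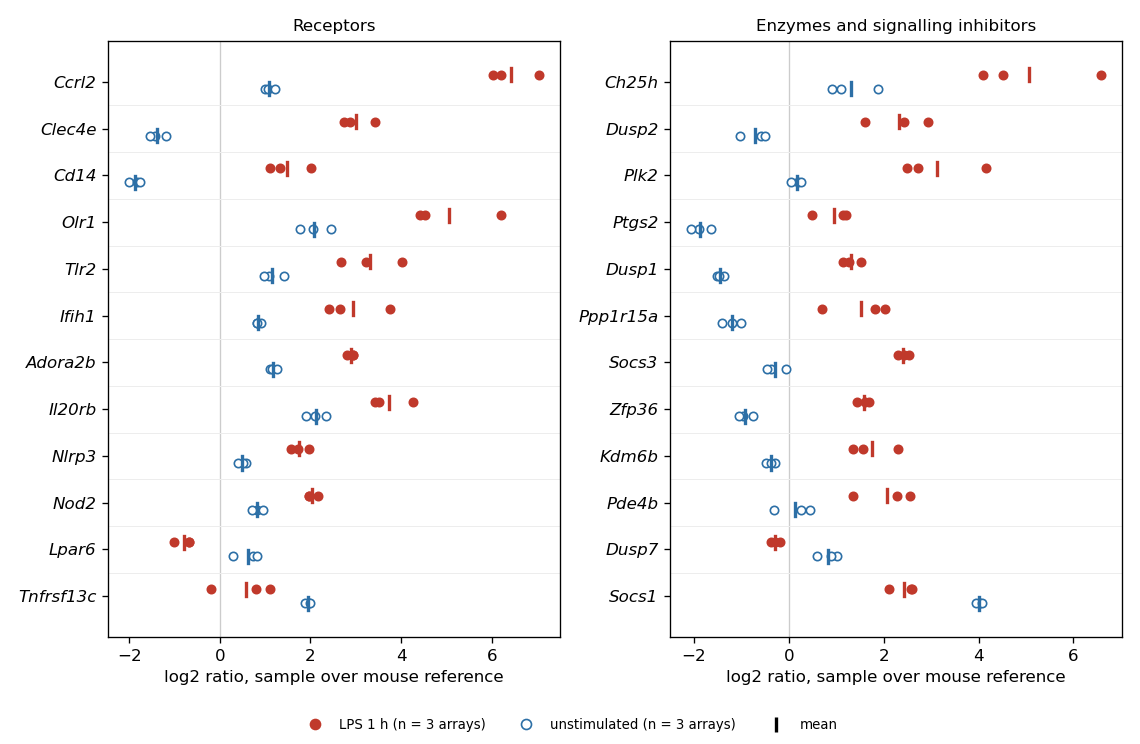
Log2 ratio of sample to mouse reference (x axis) on each array for receptors (left) and for enzymes and signalling inhibitors (right). Filled red points are the 3 arrays at LPS 1 h, open blue points the 3 unstimulated arrays, and vertical marks the means. Array B lies far to the right for Ch25h, Olr1 and Plk2, and Lpar6, Tnfrsf13c, Dusp7 and Socs1 are lower at 1 h.

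**Figure D3:**
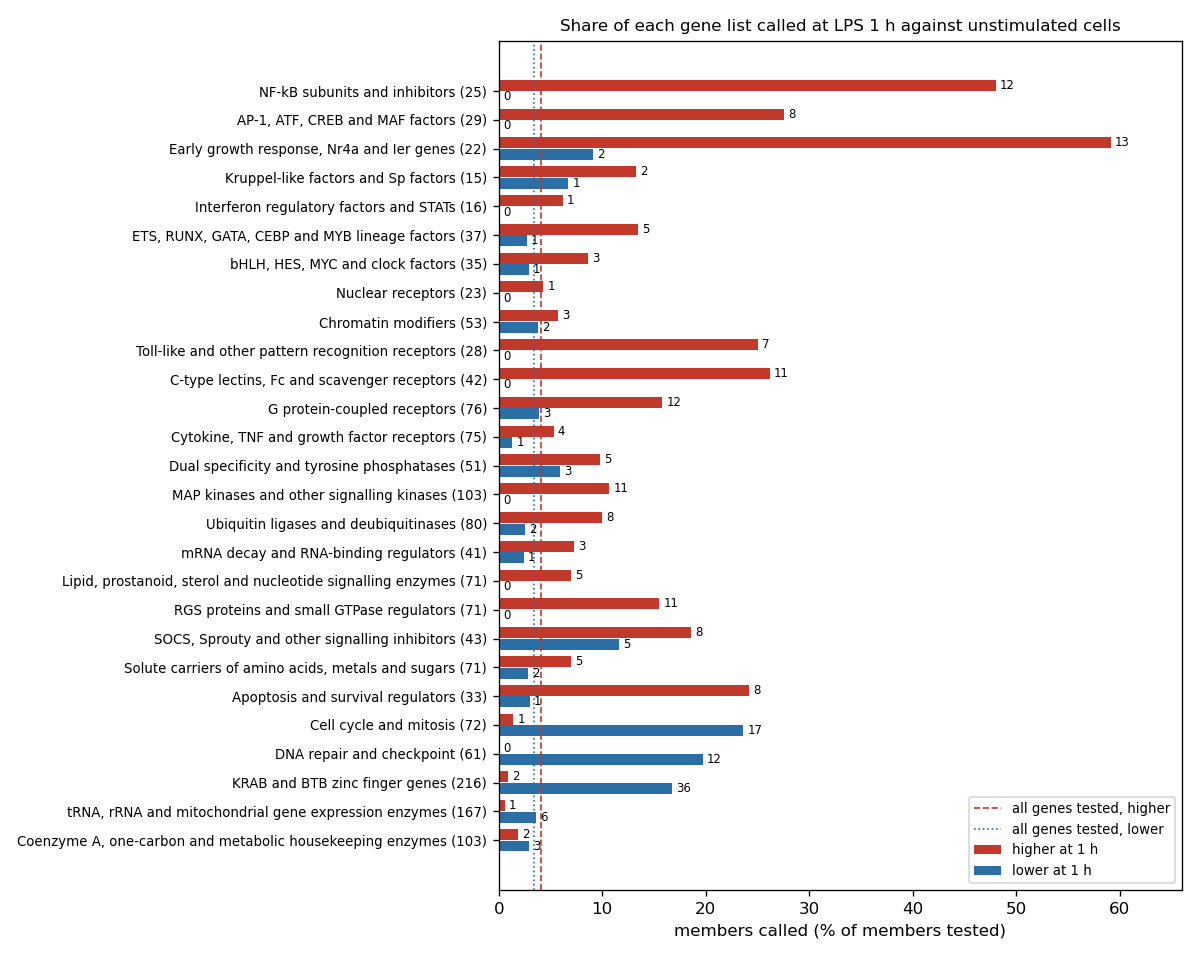
Members called higher (red) and lower (blue) at LPS 1 h against unstimulated cells, as a percentage of the members tested (x axis); the number tested stands in brackets and the number called beside each bar. The dashed and dotted lines mark the 4.1% higher and 3.4% lower among all genes tested. Immediate early and NF-kB genes reach 59.1 and 48.0% higher, and cell cycle, DNA repair and zinc finger genes 23.6, 19.7 and 16.7% lower.

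The list with the most falls was that of zinc finger proteins with KRAB, SCAN or BTB type names, many of which are DNA-binding repressors. Of 425 such names, 293 were on the array and 216 were tested. Of these 36 fell and 2 rose, against 3.39 and 4.06% of all genes. A change below 0 was found in 165 of the 216, against 5278 of all 11095 genes. The 36 made up 9.6% of the 376 genes called lower, and the 216 made up 1.95% of the genes tested. The median was -0.21, against 0.02 over all genes. It was below the median of all genes by each scaling, at -0.31 against -0.12 with median centring, -0.27 against -0.04 from the Cy5 channel alone, and -0.16 against 0.01 with slide as a block. With the block 11 fell, with median centring 12 and with normexp as deposited 18. Without 1 h array B 22 fell, and without unstimulated array A or B 20 and 22.

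Zfp82 had -0.38, -0.94 and -0.59 at 1 h, against 0.86, 0.73 and 0.7 in unstimulated cells (a log2 change of -1.4, SE 0.17, adjusted p = 0.00032), and Zfp472 had -0.84, -0.97 and -0.71 on the 1 h arrays, against 0.46, 0.47 and 0.42 on the unstimulated arrays (a log2 change of -1.29, SE 0.17, adjusted p = 0.00039). Zkscan14 had -0.02, -0.2 and -0.19 at 1 h, against 1.17, 0.87 and 1.24 in unstimulated cells (a log2 change of -1.23, SE 0.13, adjusted p = 6.9e-05), and Zfp12 had -1.63, -2.06 and -1.93 on the 1 h arrays, against -0.75, -0.65 and -0.7 on the unstimulated arrays (a log2 change of -1.17, SE 0.13, adjusted p = 1e-04). These 4 genes, whose targets are not described here, were lower on every 1 h array and kept their call with slide as a block. Zbtb1, a BTB protein needed for lymphoid development, had -0.34, -0.77 and -0.26 at 1 h, against 0.81, 1.38 and 0.48 in unstimulated cells (a log2 change of -1.35, SE 0.2, adjusted p = 0.0013, and 0.06 with slide as a block). Zfp770 had -0.54, -1.06 and -0.38 on the 1 h arrays, against 0.53, 0.77 and 0.18 on the unstimulated arrays (a log2 change of -1.15, SE 0.2, adjusted p = 0.0036). The remaining 30 falls had log2 changes between -1.13 and -0.38. The 2 called higher were Zfp819 (1.07), which lost its call whichever of the 6 arrays was left out (adjusted p = 0.057 to 0.16), and Zfp617 (0.44), which lost it without 1 h array A or B or unstimulated array A, B or C (adjusted p = 0.054 to 0.12) and with slide as a block (adjusted p = 0.13).

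Falls were also found among genes of cell division, and their number depended on the processing. Of 72 tested genes of the cell cycle and mitosis 17 fell, 1 was called higher and 54 passed in neither direction. The calls were 23.6% lower and 1.4% higher, against 3.39 and 4.06% of all genes. A change below 0 was found in 67, against 5278 of all 11095 genes, and the list median was -0.81. The median was -1.03 with median centring, -1.05 with the scanner software's processed signals, -0.93 from the Cy5 channel alone, -0.70 with slide as a block and -0.50 without 1 h array B. The rise, of Cdk6 (0.58), was lost without 1 h array A, B or C or unstimulated array A or B (adjusted p = 0.054 to 0.13) and with slide as a block (adjusted p = 0.16). There were 2 falls with slide as a block, 2 with median centring, 0 with normexp as deposited and 8 with processed signals. There were 6 without 1 h array A, 5 without array B and 36 without array C, and 5 and 4 without unstimulated array A and B. Cdca7, a MYC and E2F target, had -3.04, -3.24 and -2.62 at 1 h, against -1.26, -1.38 and -1.82 in unstimulated cells (a log2 change of -1.48, SE 0.19, adjusted p = 0.00034). Fbxo5 (Emi1), which restrains the anaphase-promoting complex, had -1.96, -2.69 and -1.73 on the 1 h arrays, against -0.67, -0.64 and -0.78 on the unstimulated arrays (a log2 change of -1.43, SE 0.21, adjusted p = 0.0011). Both genes were lower on all 1 h arrays. Cyclin D1 (Ccnd1), which drives entry into S phase, had -2.37, -2.55 and -1.93 at 1 h, against -1.32, -1.05 and -1.44 in unstimulated cells (a log2 change of -1.01, SE 0.2, adjusted p = 0.0081, and 0.12 with slide as a block). Rrm2, a subunit of ribonucleotide reductase, had -1.74, -2.19 and -1.24 on the 1 h arrays, against -0.64, -0.42 and -0.94 on the unstimulated arrays (a log2 change of -1.05, SE 0.28, adjusted p = 0.038), with array B lowest and array C nearest to the controls, and it was not called with the block (adjusted p = 0.2) or without 1 h array A or B or unstimulated array A or B (adjusted p = 0.094 to 0.16).

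Of 61 tested DNA repair and checkpoint genes 12 fell and 0 rose (19.7% lower, against 3.39% of all genes). A change below 0 was found in 51, against 5278 of all 11095 genes. The list median was -0.16 (-0.34 with median centring, -0.20 with slide as a block). The number called lower was 0 with slide as a block, with median centring and with normexp as deposited, 6 with processed signals, 5, 2 and 19 without 1 h array A, B or C, and 1 without unstimulated array A or B. Exo1, an exonuclease of mismatch repair, had -2.31, -3.29 and -1.66 at 1 h, against -0.77, -0.76 and -1.33 in unstimulated cells (a log2 change of -1.47, SE 0.36, adjusted p = 0.029). Array B was lowest, and Exo1 was not called with the block (adjusted p = 0.22) or without 1 h array A or B or unstimulated array A or B (adjusted p = 0.063 to 0.12). Of 2 further genes that act on chromosomes and belong to neither list, Hjurp, the chaperone that loads the centromeric histone, had -1.92, -2.6 and -1.57 on the 1 h arrays, against -0.66, -0.51 and -0.69 on the unstimulated arrays (a log2 change of -1.41, SE 0.22, adjusted p = 0.0019). Uhrf1, which maintains DNA methylation after replication, had -1.76, -2.63 and -1.21 at 1 h, against -0.29, -0.53 and -0.67 in unstimulated cells (a log2 change of -1.37, SE 0.34, adjusted p = 0.028), and was not called with slide as a block (adjusted p = 0.14) or without 1 h array A or B or unstimulated array A or B (adjusted p = 0.061 to 0.12).

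Genes of tRNA, rRNA and mitochondrial gene expression had 6 falls and 1 rise among 167 tested, 3.6 and 0.6%, against 3.39 and 4.06% of all genes. The share of falls was near that of all genes, and the share of rises lay below it. A change below 0 was found in 130, against 5278 of all 11095 genes. The median was -0.16, against 0.02 over all genes (-0.35 against -0.12 with median centring). The mitochondrial ribosomal protein Mrps25 had -0.13, -0.37 and 0.12 on the 1 h arrays, against 0.83, 0.91 and 0.74 on the unstimulated arrays (a log2 change of -0.95, SE 0.16, adjusted p = 0.0029). Mrpl49 had -1.09, -1.16 and -1.03 at 1 h, against -0.08, -0.16 and -0.4 in unstimulated cells (a log2 change of -0.88, SE 0.13, adjusted p = 0.0011). Both were lower on every 1 h array. The falls numbered 2 without 1 h array B, 13 without array C, and 2, 3 and 13 without unstimulated array A, B or C. Coenzyme A and one-carbon enzymes lay near the background, with 3 of 103 lower and 2 higher (2.9 and 1.9%, against 3.39 and 4.06% of all genes) and a median of 0.01. Among the 3 was Ppcs, an enzyme of coenzyme A synthesis, with -0.98, -0.9 and -0.85 on the 1 h arrays, against -0.1, -0.25 and -0.29 on the unstimulated arrays (a log2 change of -0.69, SE 0.11, adjusted p = 0.002).

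Other strong falls were of mixed function. Osgin1, an oxidative stress-induced growth inhibitor, had -1.75, -1.67 and -1.9 at 1 h, against -0.12, -0.51 and -0.42 in unstimulated cells (a log2 change of -1.42, SE 0.14, adjusted p = 4.3e-05). Rsrp1, an arginine and serine rich protein, had -1.0, -1.16 and -0.59 on the 1 h arrays, against 0.5, 0.59 and 0.66 on the unstimulated arrays (a log2 change of -1.5, SE 0.2, adjusted p = 0.00049). Camkk1, a kinase activated by calcium and calmodulin, had -0.62, -1.23 and -0.24 at 1 h, against 1.12, 0.83 and 0.55 in unstimulated cells (a log2 change of -1.53, SE 0.27, adjusted p = 0.0044). Plac8, a cysteine-rich protein of myeloid cells, had -2.07, -2.92 and -2.42 on the 1 h arrays, against -0.51, -1.04 and -1.26 on the unstimulated arrays (a log2 change of -1.53, SE 0.29, adjusted p = 0.0069, and 0.22 with slide as a block). The groups were apart for each. Kif5a, a motor of axonal transport, had 0.07, -0.69 and -0.01 at 1 h, against 1.01, 1.12 and 1.67 in unstimulated cells (a log2 change of -1.48, SE 0.24, adjusted p = 0.0024, and 0.067 with slide as a block). Txnip, Tsc22d3 and Cxcr4 changed by -0.32, -0.33 and -0.43, and did not pass the test here (adjusted p = 0.43, 0.49 and 0.11).

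Some neutrophil marker genes were among the falls. S100a8, a calcium-binding alarmin, had 2.6, 1.28 and 2.37 on the 1 h arrays, against 5.15, 4.67 and 3.94 on the unstimulated arrays (a log2 change of -2.5, SE 0.56, adjusted p = 0.019), and lactoferrin (Ltf) had 2.44, 1.04 and 1.6 at 1 h, against 3.98, 3.36 and 3.59 in unstimulated cells (a log2 change of -1.95, SE 0.4, adjusted p = 0.011). Ctsg, a granule protease, had 0.94, 0.7 and 0.87 on the 1 h arrays, against 2.62, 1.92 and 2.0 on the unstimulated arrays (a log2 change of -1.34, SE 0.18, adjusted p = 0.00046). Mpo, myeloperoxidase, had 0.68, 0.5 and 0.43 at 1 h, against 1.88, 1.2 and 1.36 in unstimulated cells (a log2 change of -0.94, SE 0.17, adjusted p = 0.0048, and 0.13 with slide as a block). Each was lower on all 1 h arrays. Of 12 neutrophil markers tested 4 fell and 0 rose (33.3% lower, against 3.39% of all genes). The other 8 were not called, and 4 markers had a change above 0, of at most 0.63. Without 1 h array B 2 fell, and without unstimulated array A 2. S100a8 was not called without 1 h array B or unstimulated array A or B (adjusted p = 0.074 to 0.099), and Ltf not without 1 h array B or unstimulated array A (adjusted p = 0.052 to 0.065) or with slide as a block (adjusted p = 0.15). The summed sample-channel signal of the 15 markers on the array was 957000 to 1310000 at 1 h, against 1030000 to 1250000 in unstimulated cells, and Elane, Csf3r and Retnlg were at background on all 6 arrays. For erythroid markers the sums were 9600 to 14600 at 1 h, against 16200 to 27100 in unstimulated cells, and for progenitor markers 8240 to 11700, against 6470 to 8960. The sums were higher at 1 h, without overlap, for markers of conventional dendritic cells (502000 to 559000, against 375000 to 473000), of macrophages or monocytes (552000 to 746000, against 431000 to 484000) and of stromal cells (16500 to 25200, against 13600 to 14900). These sums were not scaled between arrays. The median net Cy5 signal was 27, 40 and 35.5 on 1 h arrays A, B and C, against 24, 29 and 27 on the unstimulated arrays. The dendritic cell markers include Irf4 and Id2, and those of macrophages or monocytes Cd14 and Mrc1, all called higher here. The sums therefore do not measure cell numbers, and the part of the cell makeup in the rises and falls was not tested.

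**Figure D4:**
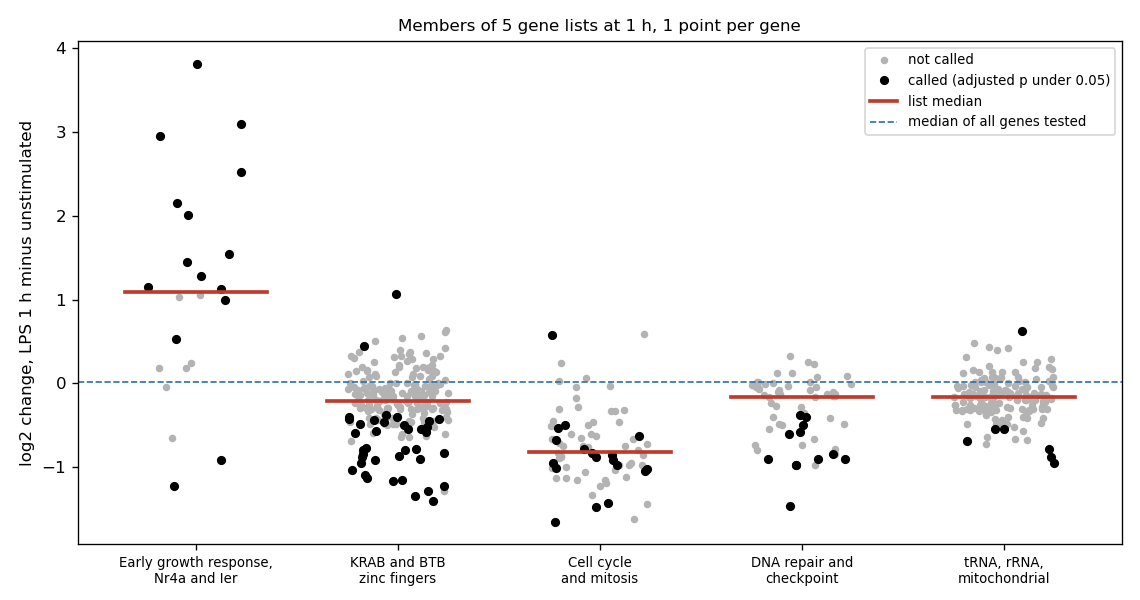
Log2 change at LPS 1 h minus unstimulated (y axis) for each tested member of 5 gene lists. Black points passed the test, grey points did not, red bars are list medians and the dashed blue line is the median of all genes tested (0.02). The medians are 1.08 for immediate early genes, -0.21 for zinc finger genes, -0.81 for cell cycle genes, and -0.16 for DNA repair and for tRNA, rRNA and mitochondrial genes.

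The levels of the same genes at 6 and 24 h of LPS, on 3 arrays each, show which of the early changes had passed by then. Genes chosen for a call at 1 h tend to lie nearer to the controls at any other time, so the counts are descriptions. Of the 214 genes raised by at least 2-fold at 1 h, 60 had less than 50% of that log2 change left at 6 h, and 88 were at or above their 1 h level. At 24 h the numbers were 81 and 72. Of the 64 genes lowered by at least 2-fold, 14 had less than 50% left at 6 h and 34 lay at or beyond their 1 h level.

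Later levels of the rises, and then of the falls, are given by class. The same counts were not made over all 451 genes called higher or all 376 called lower. The shares of a class therefore have no like base. Among the 13 raised immediate early genes 7 had under 50% of the change left at 6 h, and 5 of these lay below the unstimulated mean. Egr1 stood 3.81, -0.56 and -0.49 from the unstimulated mean at 1, 6 and 24 h. Ier2 stood at -0.34 at 6 h. Errfi1, given above with the regulators of small GTPases, stood at -0.84, and Maff, given above with AP-1, at -0.31. Of the 8 raised AP-1 family members 6 had under 50% left at 6 h, and Atf3, at 1.32 and 1.66, was not among them. Of the 5 phosphatase genes 4 were under 50% at 6 h, with Dusp1 at 1.3, while among 12 NF-kB regulators 7 were at or above their 1 h level. These 7 were the ones not called with slide as a block. The 5 called with it, Nfkbiz (4.12), Tnfaip3 (2.34), Nfkbia (2.28), Nfkbid (0.58) and Tnip3 (0.88), all stood lower at 6 h than at 1 h (in brackets the log2 difference from the unstimulated mean at 6 h). Of 11 kinases 7, and of 5 lipid and amine enzymes 4, had reached or passed their 1 h change at 6 h, such as Hdc, which stood 1.33, 4.62 and 4.8 from the unstimulated mean at 1, 6 and 24 h. Pattern recognition receptors mostly stayed up, with 1 of 7 under 50% at 6 h, and Ifih1 stood 2.09, 4.44 and 2.3 from the unstimulated mean at 1, 6 and 24 h. Clec4e stood 4.39, 4.78 and 4.91 from the unstimulated mean at 1, 6 and 24 h.

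Of the 36 lowered zinc finger genes 33 were higher at 6 h than at 1 h, 25 had less than 50% of the fall left then and 29 at 24 h. Zkscan14 stood -1.23, -0.54 and 0.16 from the unstimulated mean at 1, 6 and 24 h, and Zfp82 -1.4, -0.72 and -0.2 from the unstimulated mean at 1, 6 and 24 h. Of the 17 lowered cell cycle genes 13 lay at or beyond their 1 h fall at 6 h and 15 at 24 h, and Fbxo5 stood -1.43, -1.72 and -2.05 from the unstimulated mean at 1, 6 and 24 h. Of the 12 lowered repair genes 9 and 10 did. Socs1 stood -1.58, -0.72 and -0.05 from the unstimulated mean at 1, 6 and 24 h, and Gadd45g, with a later return, -1.62, -1.46 and 0.72 from the unstimulated mean at 1, 6 and 24 h.

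**Figure D5:**
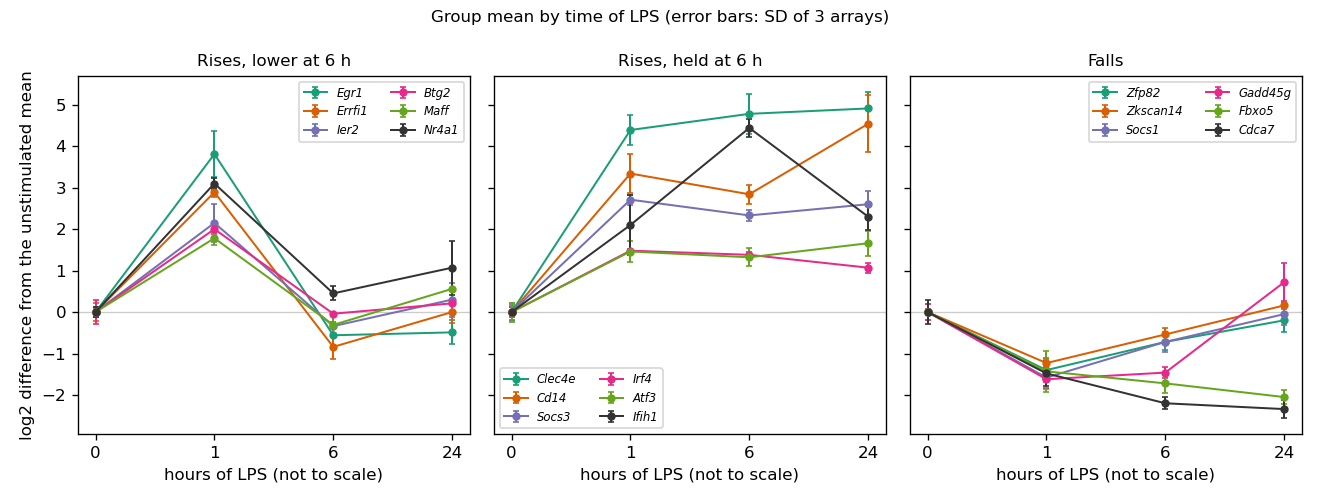
Log2 difference of the group mean from the unstimulated mean (y axis) at 0, 1, 6 and 24 h of LPS (x axis, not to scale), with error bars giving the SD of 3 arrays. Left, Egr1, Errfi1, Ier2, Btg2, Maff and Nr4a1 peak at 1 h among the times sampled; middle, Clec4e, Cd14, Socs3, Irf4, Atf3 and Ifih1 remain raised; right, Zfp82, Zkscan14, Socs1 and Gadd45g return towards or past the unstimulated mean by 24 h while Fbxo5 and Cdca7 do not.

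Neighbouring genes were compared through their order in the RefSeq table (GRCm38.p6). Of 6729 adjacent pairs with both genes tested, 52 had both genes called, by calls made without the block. Of these 33 rose together, 12 fell together and 7 moved in opposite directions. Over all genes tested 7.45% were called. How many such pairs another order of the genes would give was not computed, so the pairs are only listed. Pairs that rose together included Kdm6b with Tmem88 (2.13 and 1.92 on the log2 scale), Ppp1r15a with Nucb1 (2.72 and 0.54), Clec2d with Cd69 (1.21 and 2.28) and Osgin2 with Ripk2 (1.70 and 0.78). Pairs that fell together included the zinc finger genes Zfp82 and Zfp566 (-1.40 and -0.90) and Zfp763 and Zfp563 (-0.79 and -0.44), and Ikzf1 with Fignl1 (-0.77 and -1.65). Pairs that moved apart were Ccrl2 and Ltf (5.33 and -1.95), Plk2 and Gapt (2.95 and -0.83), Il6 and Tyms (6.18 and -0.53), Irak2 and Vhl (0.83 and -0.97), Cyp4f13 and Zfp472 (0.59 and -1.29), Clcf1 and Rad9a (0.67 and -0.51), and Rraga and Haus6 (0.59 and -0.51). Most were named after their values were seen.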

How the data were processed

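RNA of 12 samples was hybridised to 2-colour Agilent arrays, with Cy5-labelled sample (750 ng of labelled cRNA) against a Cy3-labelled pooled mouse reference. The scanner intensity of each spot is deposited as median pixel values made with Agilent Feature Extraction 10.7.3.1 and protocol GE2_107_Sep09, per the file headers. The log2 ratios of the authors' deposited value table, for which the submitters' processing notes name limma, correlated with the ratios computed here at r = 0.999 or more, in the same direction; no header or label records the steps behind them.

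Ratios were computed with limma 3.58.1 in R 4.3.3. Control spots and feature outliers were left out. Local backgrounds marked as outliers were replaced by the array's median background, a choice made after the files were seen. Background was corrected by normexp (offset 50), followed by loess (span 0.3) within each array. Of 41174 probes, 22951 were matched to a symbol by RefSeq accession. Genes needed a probe well above background in Cy5 on all 3 arrays of at least 1 group, and the brightest probe stood for a gene, leaving 11095 genes. The fit held 4 group means over 12 arrays (8 residual degrees of freedom). Calls used Benjamini-Hochberg adjusted p under 0.05, and all adjusted p-values in the text are from limma. No slide but slide 1 holds both groups.

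The members and gene lists were chosen with earlier results of these data known. Edn1 and an entry that is no gene symbol were removed from the lists after the files were seen. Genes named are the 20 largest rises and falls, up to 6 called members a list in each direction, and a set of chosen genes; further list members, neighbouring genes and the TATA motif were picked after their values were seen. Alternatives covered normalization, background, signal, filter, probe choice, arrays, slide and donor, and the fit was tested on simulated data. Donor letters gave deviations from the group means correlating at 0.0633, -0.0681 and -0.21 between the groups, so they were not taken as pairs. Nothing names separate animals beyond these letters, so p-values measure the spread between these samples. Some genes of these lists are not reported here.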

Additional observations from a re-analysis of the deposited data

How the results depend on the processing

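With median centring of each array in place of loess, 225 genes were called, 179 higher and 46 lower, with 37 lower by at least 2-fold. With normexp on every spot as deposited the counts were 243 called, 156 higher and 87 lower, with 128 higher and 33 lower by at least 2-fold. The scanner software's processed signals gave 151 lower by at least 2-fold, and the Cy5 channel alone 287 called higher. With slide as a block 225 were called, 170 higher and 55 lower, with 30 lower by at least 2-fold. Leaving out 1 array at a time gave 338 to 1046 called, 219 to 534 higher and 119 to 512 lower, and 167 to 258 higher and 32 to 158 lower by at least 2-fold. The causes were not tested. The replicate block by donor letter gave 1130 called, 815 of them among the 827; samples shared only a letter, so this is a number and no pairing, and 186 of 187 named calls were kept, without Trim32, while Zc3h12a, Irf1, Cebpb and Tlr4 were gained.

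Of the 187 named genes that were called, 65 kept direction and call in all 17 alternatives, 103 kept the call with slide as a block, 104 with median centring and 157 with the Cy5 channel alone. The sign turned for 2 of them, among them Marchf1 (-0.60), with the scanner software's processed signals. Between 48.2 and 55.2% of probes were above background, with a median net Cy5 signal of 24 to 40 units, so dim genes are limited by background. Tests at an unadjusted p under 0.05 numbered 2687.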
